A study of Mus musculus with 11 samples.

Results

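The Wnt co-receptors and R-spondin receptors examined here are 10 genes, Lrp4, Lrp5, Lrp6, Lgr4, Lgr6, Znrf3, Ror1, Ror2, Ryk and Kremen1, picked by symbol from the 22600 genes of the merged count table, with earlier results of these data known. All 10 were found, and all 10 passed the filter on low counts that left 16496 genes for testing. Whole distal tibiae gave the RNA, from 4 mice labelled Control and 7 labelled BMAd-DTA, each sequenced as its own library. By the labels every mouse was of strain C57BL6/SJL, 24 weeks old and fed ad libitum. According to the study's methods, all mice, controls included, carried Osterix-FLPo and the FLPo-activated Adipoq-Cre (FAC). Cre is thus made only where both the Osterix and the Adipoq promoters have been active, mainly in bone marrow adipocytes (BMAds) and, by the study's account, also in a minor share of the adipocyte precursors of the marrow stroma. In BMAd-DTA mice this Cre also removes a stop cassette in front of diphtheria toxin A at the ROSA locus, and the toxin kills the cell. The comparison asks how the RNA of the bone differs once BMAds are depleted.

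Wnt proteins bind Frizzled receptors together with a co-receptor. LRP5 and LRP6 are the co-receptors of the beta-catenin branch, in which the bound complex shields beta-catenin from degradation, and loss or gain of LRP5 function is known to lower or raise bone mass. Sclerostin and DKK1, made by osteocytes and osteoblasts, block LRP5 and LRP6. LRP4 holds sclerostin in bone, and in muscle it is the receptor for agrin. ZNRF3 is a membrane ubiquitin ligase that removes Frizzled and LRP6 from the cell surface. R-spondins bound to an LGR receptor draw ZNRF3 away and so raise the number of Wnt receptors. ROR1, ROR2 and RYK bind WNT5A and related ligands, largely outside the beta-catenin branch, and KREMEN1 binds DKK proteins and helps to internalize LRP6.

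The fitted level of all 10 genes was higher in BMAd-DTA mice than in controls. The median log2 fold change was 0.31, with a range from 0.070 for Lrp6 to 0.54 for Lrp4. Over all genes tested, 50.4% had a log2 fold change above 0 and the median was 0.0018. By the quasi-likelihood test of edgeR, adjusted by Benjamini-Hochberg over all genes, 0 of the 10 had an adjusted p under 0.05, as against 0.0788% of all genes in either direction. Before adjustment, 4 of the 10 (Lgr4, Lrp5, Lgr6 and Lrp4) were higher with a p under 0.05, as against 7.89% of all genes. DESeq2, the tool named in the study's methods, called 3 of the 10 higher (Lgr4, Lrp5 and Lrp4), as against 2.78% of the genes to which it gave an adjusted p. For Lrp5 and Lgr4 every BMAd-DTA mouse was above every control, a pattern that 1.78% of all genes tested showed in this direction. Without Control 1, DESeq2 called 0 of the 10, and its calls over all genes fell from 845 to 213. The call of Lrp4 was also lost without several other single mice, named below.

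**Figure D1:**
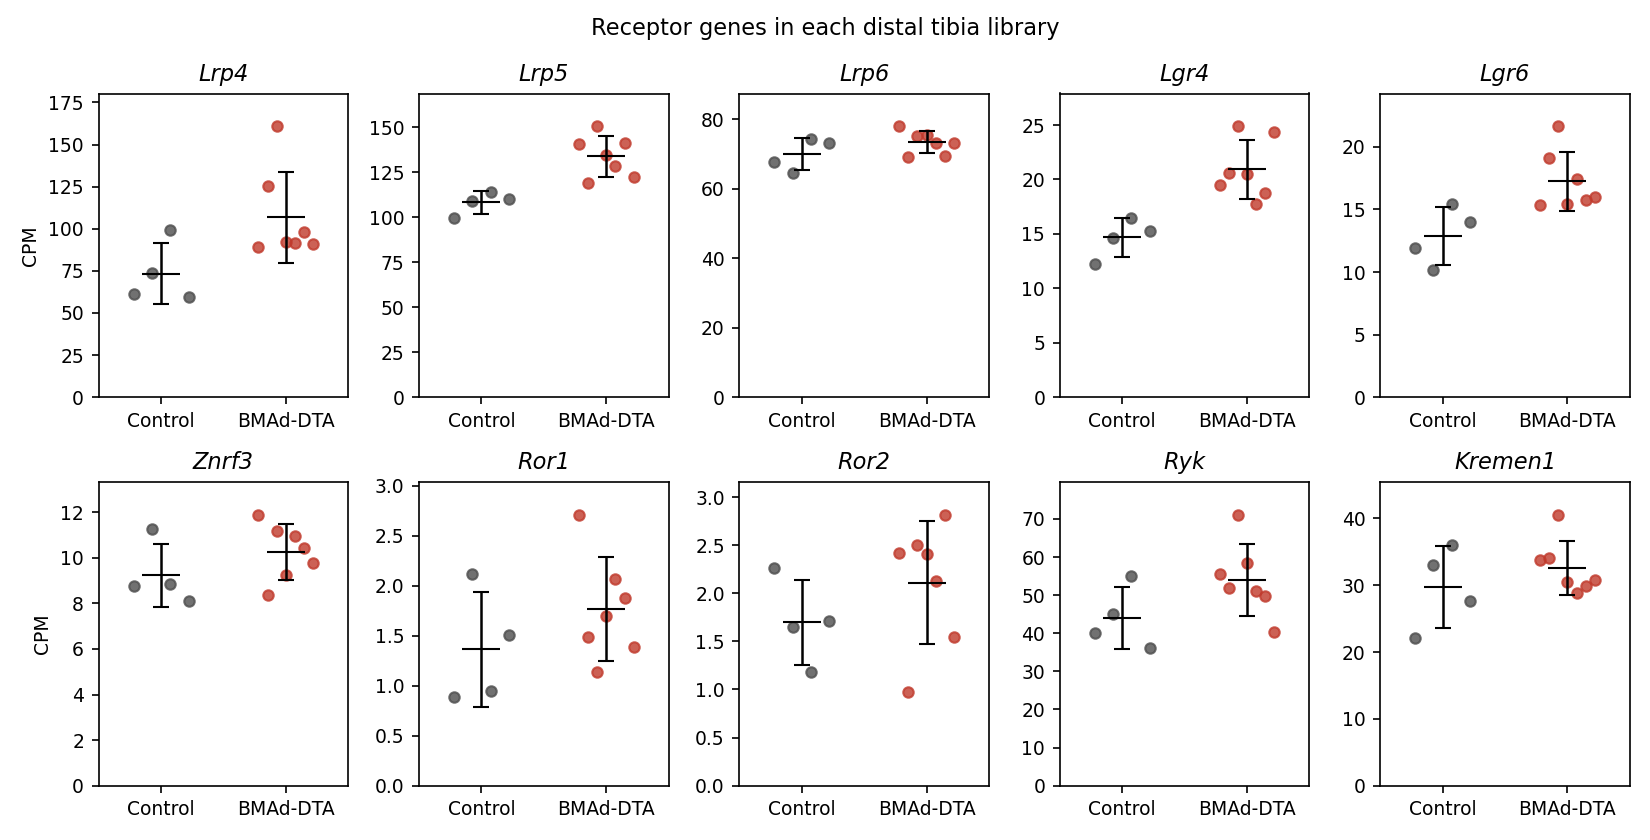
Level of each of the 10 genes in CPM (vertical axes from 0) in the 4 Control and 7 BMAd-DTA libraries, with 1 point per library and the mean ± SD in black. The points of the groups are apart for Lrp5 and Lgr4 and overlap for the other 8 genes.

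Levels are in CPM, counts scaled by TMM to a library of common size, and totals of counts on genes ran from 16969529 to 18637663 over the 11 libraries. Osteoblast and osteocyte markers had a summed level of 16850 to 37310 CPM in BMAd-DTA libraries and 3522 to 13870 CPM in controls. All 15 of these markers were detected and 15 had a positive log2 fold change. Control 1 had the lowest sum, 3522 CPM, where the other controls had 11740 CPM or more, and it lay at one end of the first principal component of all genes. The 20 skeletal muscle markers summed to 34.4 to 1654 CPM in controls and 35.5 to 1254 CPM in BMAd-DTA libraries, with Control 3 and BMAd-DTA 6 highest. Adipocyte markers, all 12 of them with a negative log2 fold change, summed to 1060 to 1830 CPM in controls and 406.7 to 1282 CPM in BMAd-DTA libraries. In RNA from a whole bone, a change in the number of cells of a type and a change in RNA per cell cannot be told apart.

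Lrp5 was the 1 LRP gene of the 3 whose groups did not overlap. It lies on chromosome 19, 3584828 to 3686564 (GRCm38, minus strand), and the 4 controls were at 99.6, 109, 114 and 110 CPM. The BMAd-DTA mice ran from 119 to 151 CPM with a median of 135 CPM. All 7 BMAd-DTA mice thus lay above the highest control. The log2 fold change was 0.31 (95% interval 0.15 to 0.46, adjusted p = 0.0726 in edgeR's test, 0.00671 in DESeq2). Leaving out each mouse in turn gave estimates from 0.27 to 0.34, and the DESeq2 call was lost without Control 1 only (adjusted p = 0.094).

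Lrp6, the closest relative of Lrp5, showed no such difference. It lies on chromosome 6, 134446476 to 134566965 (minus strand). The controls were at 67.7, 64.5, 74.5 and 73.1 CPM, and the BMAd-DTA mice ran from 69.2 to 78.1 CPM with a median of 73.2 CPM. The groups overlapped, and 3 of 7 BMAd-DTA mice exceeded all controls. The log2 fold change was 0.070 with a 95% interval from -0.058 to 0.20 (adjusted p = 0.61 in edgeR's test). The upper end lies below the estimate for Lrp5, but the interval overlaps that of Lrp5 (0.15 to 0.46). The difference between the log2 fold changes of the paralogs was not tested. The log2 fold change of Lrp6 was 0.033 without Control 2 and 0.10 without Control 3. Per length of exon, Lrp5 exceeded Lrp6 by 2.07, 2.37, 2.15 and 2.12 times in the controls and by 2.35 to 2.85 times in the BMAd-DTA mice, 6 of 7 of which exceeded all controls. This ratio is taken within a library, so it does not depend on scaling between libraries, and it was not tested.

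Lrp4 had the largest log2 fold change of the 10 and the widest spread among the abundant genes. It lies on chromosome 2, 91457511 to 91513779 (plus strand). The controls were at 61.1, 73.5, 99.2 and 59.7 CPM, and the BMAd-DTA mice ran from 88.9 to 161 CPM with a median of 92.3 CPM. The values of 5 BMAd-DTA mice lay below that of Control 3, and the other two, BMAd-DTA 2 (125 CPM) and BMAd-DTA 3 (161 CPM), were far above all controls. The log2 fold change was 0.54 (95% interval 0.14 to 0.94, adjusted p = 0.162 in edgeR's test, 0.0496 in DESeq2). It ran from 0.42 without BMAd-DTA 3 to 0.73 without Control 3, and the DESeq2 call was lost without any 1 of Control 1, Control 2, Control 4, BMAd-DTA 2, BMAd-DTA 3, BMAd-DTA 4 or BMAd-DTA 6 (adjusted p up to 0.299).

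Since LRP4 is also a muscle protein, muscle RNA was read beside it. BMAd-DTA 2 and BMAd-DTA 3, with the most Lrp4, had 35.5 and 44.9 CPM of summed skeletal muscle markers, near the lowest of the 11 libraries. Control 3, the control with the most Lrp4, had the highest muscle sum, 1654 CPM. With the muscle score as a covariate the log2 fold change of Lrp4 was 0.50 (adjusted p = 0.2865 in edgeR's test). Without both muscle-rich libraries, a choice made after seeing the data, it was 0.75 (adjusted p = 0.0865 in edgeR's test). Without Control 3 alone it was already 0.73. The part of muscle RNA in the difference was not tested beyond these fits. Musk, the kinase that works with LRP4 at the nerve-muscle junction, was below the filter on low counts. Agrn, which encodes agrin, was at 46.6 ± 8.74 CPM in controls (SD, n = 4) and 46 ± 4.9 CPM in BMAd-DTA mice (SD, n = 7), with a log2 fold change of -0.018 (adjusted p = 0.964 in edgeR's test).

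**Figure D2:**
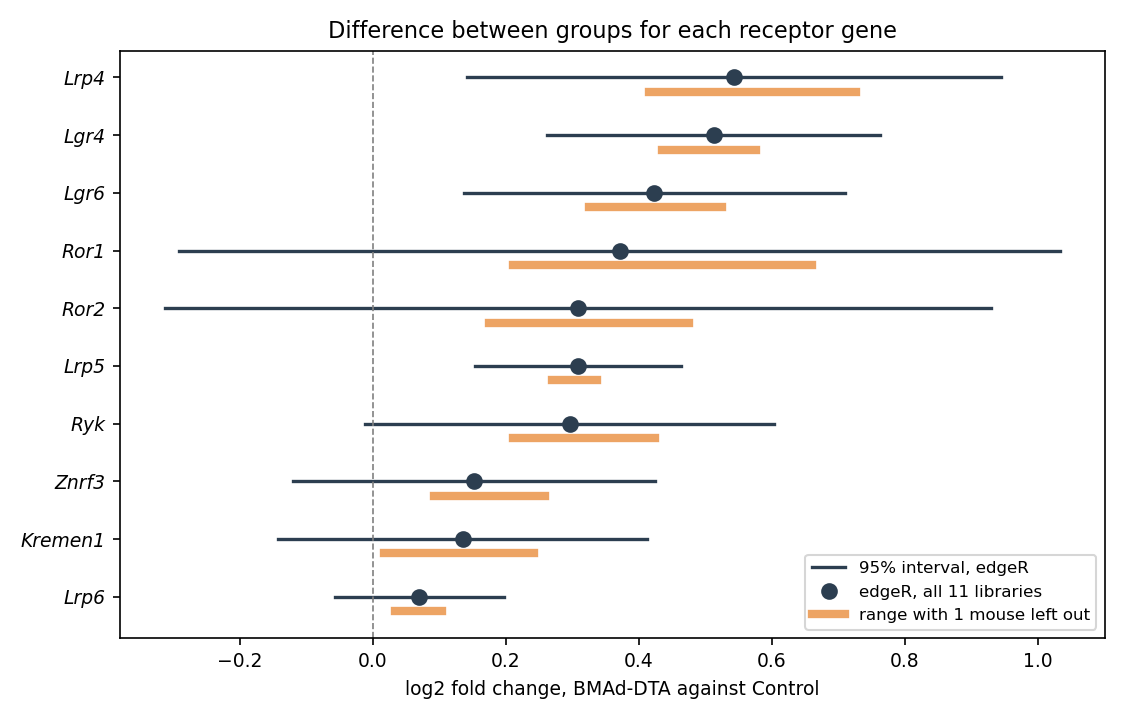
Log2 fold change of BMAd-DTA against Control (horizontal axis) for each gene, with the edgeR estimate as a dot, its 95% interval as a thin line and the range of estimates with 1 mouse left out at a time as a thick orange bar. The intervals of Lrp4, Lgr4, Lgr6 and Lrp5 lie above 0, and the other 6 include 0.

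Lgr4 and Lgr6 encode related receptors and both had a higher mean in BMAd-DTA mice, so the 250 bases upstream of their RefSeq starts (GRCm38.p6) are shown, 5′ to 3′ on the strand of the gene. Capitals mark the letters GGGCGG, the core of SP and KLF sites, and CCAAT, each on either strand. For Lgr4 the window is chr2:109917397-109917646 on the plus strand, and for Lgr6 chr1:135105277-135105526 on the minus strand.
Lgr4: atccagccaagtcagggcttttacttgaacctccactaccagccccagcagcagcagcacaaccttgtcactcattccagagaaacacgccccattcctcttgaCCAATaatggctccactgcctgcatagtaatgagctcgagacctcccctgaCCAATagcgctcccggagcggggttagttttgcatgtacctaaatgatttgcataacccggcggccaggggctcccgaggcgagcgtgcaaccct
Lgr6: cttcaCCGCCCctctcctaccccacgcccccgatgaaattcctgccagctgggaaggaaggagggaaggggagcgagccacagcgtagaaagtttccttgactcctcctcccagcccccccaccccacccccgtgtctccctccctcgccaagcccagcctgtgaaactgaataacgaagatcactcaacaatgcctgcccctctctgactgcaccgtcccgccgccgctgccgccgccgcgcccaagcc
The Lgr4 window held 2 matches of CCAAT and 0 of GGGCGG, and the Lgr6 window 1 match of GGGCGG and 0 of CCAAT. In the same 250 bases of 32851 promoters, 33.8% held CCAAT and 32.7% held GGGCGG. Neither window held CTTTGAA or CTTTGAT, forms of the TCF and LEF site that 7.48% of all promoters held, nor ACCACA, a RUNX core that 14.0% held. Of the 10 genes, 5 had an entry in the promoter table, and the windows of Ror1, Ror2 and Ryk also lacked both TCF and LEF forms. CCAAT was added to the search after these windows had been seen.

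Among the R-spondin receptors, Lgr4 had the smallest p of the 10 genes. It lies on chromosome 2, 109917647 to 110014257 (plus strand). The controls were at 12.2, 14.7, 16.5 and 15.3 CPM, and the BMAd-DTA mice ran from 17.7 to 24.9 CPM with a median of 20.5 CPM. The groups did not overlap. The log2 fold change was 0.51 (95% interval 0.26 to 0.76, adjusted p = 0.072 in edgeR's test, 0.00419 in DESeq2). Without Control 3, edgeR's test called it as well (adjusted p = 0.0483), and without Control 1 neither tool did (adjusted p = 0.238 in edgeR's test, 0.0705 in DESeq2).

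Lgr6, which in these bones was less abundant per length than Lgr4 in every library, lies on chromosome 1, 134983301 to 135105276 (minus strand). The controls were at 11.9, 10.1, 15.4 and 14 CPM, and the BMAd-DTA mice ran from 15.3 to 21.7 CPM with a median of 16 CPM. Control 3 alone reached into the BMAd-DTA range, and 5 of 7 BMAd-DTA mice exceeded all controls. The log2 fold change was 0.42 (95% interval 0.14 to 0.71, adjusted p = 0.136 in edgeR's test, 0.0511 in DESeq2). The ratio of Lgr6 to Lgr4 per length was 0.755 ± 0.11 in controls (SD, n = 4) and 0.714 ± 0.0957 in BMAd-DTA mice (SD, n = 7), so the ratio differed by less than the spread between mice. Lgr5, the other member of the family, was at 4.73 ± 0.789 CPM in controls (SD, n = 4) and 4.66 ± 1.64 CPM in BMAd-DTA mice (SD, n = 7), a log2 fold change of -0.022 ± 0.30 (SE).

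Znrf3 encodes the ligase that R-spondins and LGR receptors inhibit, and is itself a feedback target of beta-catenin. It lies on chromosome 11, 5276324 to 5444847 (minus strand). The controls were at 8.76, 11.3, 8.86 and 8.09 CPM, and the BMAd-DTA mice ran from 8.37 to 11.9 CPM with a median of 10.4 CPM. The ranges overlapped nearly throughout (log2 fold change 0.15, 95% interval -0.12 to 0.42, adjusted p = 0.603 in edgeR's test). Its log2 fold change was 0.26 without Control 2 and 0.092 without Control 4. Its paralog Rnf43 was at 7.4 ± 1.19 CPM in controls (SD, n = 4) and 7.39 ± 1.45 CPM in BMAd-DTA mice (SD, n = 7), a log2 fold change of -0.00038 ± 0.18 (SE).

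The receptors of WNT5A-type ligands were split by level. Ryk lies on chromosome 9, 102834917 to 102908305 (plus strand), with controls at 40.1, 45, 55.1 and 36 CPM and BMAd-DTA mice from 40.2 to 71.2 CPM with a median of 51.9 CPM. The groups overlapped, and 3 of 7 BMAd-DTA mice exceeded all controls (log2 fold change 0.30, 95% interval -0.011 to 0.60, adjusted p = 0.322 in edgeR's test). Ror1 on chromosome 4, 100095791 to 100444765 (plus strand), had 16 to 46 counts per library, with controls at 0.882, 2.12, 0.945 and 1.5 CPM and BMAd-DTA mice from 1.14 to 2.71 CPM. Ror2 on chromosome 13, 53109312 to 53286124 (minus strand), had 17 to 48 counts per library, with controls at 2.26, 1.65, 1.18 and 1.71 CPM and BMAd-DTA mice from 0.974 to 2.82 CPM. The groups overlapped for both. At this depth the intervals were wide, from -0.29 to 1.03 for Ror1 around a log2 fold change of 0.37, and from -0.31 to 0.93 for Ror2 around 0.31, and each held both 0 and the estimate for Lgr4. Single mice moved both estimates, that of Ror1 from 0.21 without Control 1 to 0.66 without Control 2, and that of Ror2 from 0.17 without Control 3 to 0.47 without Control 1. Wnt5a, a ligand of all 3 receptors, was at 6.04 ± 0.592 CPM in controls (SD, n = 4) and 8.38 ± 1.34 CPM in BMAd-DTA mice (SD, n = 7), a log2 fold change of 0.47 (adjusted p = 0.131 in edgeR's test, 0.0489 in DESeq2).

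Kremen1, the DKK receptor, lies on chromosome 11, 5191552 to 5261558 (minus strand). The controls were at 22.1, 33, 36 and 27.7 CPM, and the BMAd-DTA mice ran from 28.8 to 40.6 CPM with a median of 30.8 CPM. The groups overlapped, and 1 of 7 BMAd-DTA mice exceeded all controls (log2 fold change 0.13, 95% interval -0.14 to 0.41, adjusted p = 0.662 in edgeR's test). Control 1 alone set much of this difference, since without it the log2 fold change was 0.017.

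Per kilobase of exon, Lrp5 was the most abundant of the 10 in controls, at 11.1 ± 0.631 CPM per kilobase (SD, n = 4), followed by Ryk at 9.71 ± 1.81, Lrp4 at 6.99 ± 1.74, Lrp6 at 5.12 ± 0.339, Kremen1 at 3.85 ± 0.79, Lgr4 at 2.49 ± 0.305, Lgr6 at 1.88 ± 0.34, Znrf3 at 1.17 ± 0.175, Ror2 at 0.401 ± 0.104 and Ror1 at 0.237 ± 0.1. The order of the means was the same in BMAd-DTA mice. Among controls the ranges of neighbours overlapped for Lrp5 and Ryk, Ryk and Lrp4, Lgr4 and Lgr6, and Ror2 and Ror1, and the other neighbours were apart. Among BMAd-DTA mice they also overlapped for Lrp6 and Kremen1 and for Kremen1 and Lgr4. Exon length was taken as the union of all annotated exons, so a gene that uses only short transcripts is understated on this scale.

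**Figure D3:**
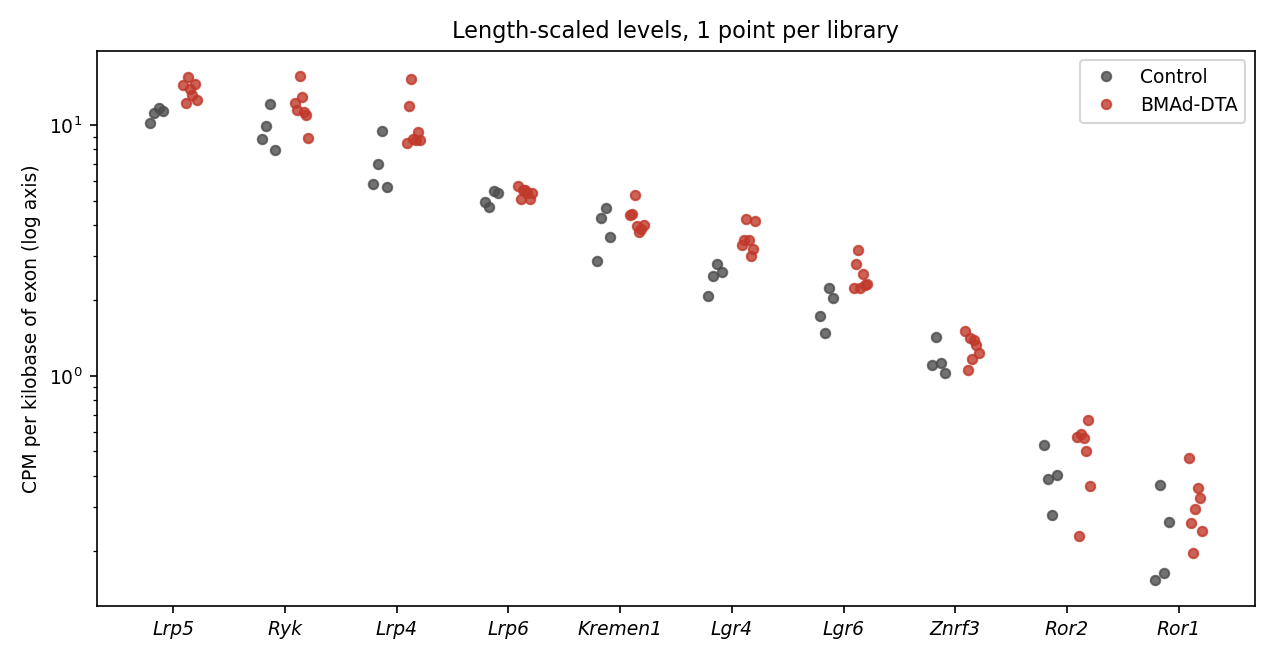
Level of each gene in CPM per kilobase of exon (vertical log axis) in each Control and BMAd-DTA library, with genes ordered by their mean in controls. Lrp5 and Ryk sit highest and Ror2 and Ror1 lowest in both groups, and the BMAd-DTA points of Lrp5 and Lgr4 lie above those of the controls.

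The other genes of the pathway were described with 4 lists, with 62 different genes tested in all, 1 of which was Znrf3. Among 21 other receptor-level genes tested (Frizzleds, Lgr5, Rnf43 and planar polarity genes), 12 were fitted higher and 9 lower in BMAd-DTA mice, and the median log2 fold change was 0.060. The ends of this list were Fzd9 (0.53) and Tspan12 (-0.49), and edgeR's test called 0. At an unadjusted p under 0.05, 6 of 21 were higher and 2 lower, as against 7.89% and 8.53% of all genes. DESeq2 called 2 higher and 1 lower, as against 2.78% and 2.64% of all genes, namely Adgra2, Fzd5 and Tspan12. Adgra2 and Fzd5 were named after their values had been seen.

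The extracellular ligands of these receptors were fitted higher in 13 of 16 cases, and their median log2 fold change was 0.42. None was called by edgeR's test. At an unadjusted p under 0.05, 6 of 16 were higher (7.89% of all genes), and DESeq2 called 3 higher (2.78% of all genes), Sost, Dkk1 and Wnt5a. Sost, which encodes the LRP5 and LRP6 inhibitor sclerostin, was at 125 ± 22.3 CPM in controls (SD, n = 4) and 216 ± 46.8 CPM in BMAd-DTA mice (SD, n = 7) without overlap of the groups (log2 fold change 0.80, edgeR adjusted p = 0.0675, 0.000282 in DESeq2). Sost is also 1 of the 15 osteoblast and osteocyte markers, all of which were fitted higher. Dkk1, whose product binds LRP6 and KREMEN1, was at 11.7 ± 3.4 and 22.2 ± 6 CPM (log2 fold change 0.93, edgeR adjusted p = 0.0744, 0.00152 in DESeq2). Of the R-spondin genes, the log2 fold changes were 0.35 for Rspo3 (adjusted p = 0.249), 0.48 for Rspo2 (adjusted p = 0.576) and -0.82 for Rspo1 (adjusted p = 0.387), all by edgeR. Rspo1 was the low end of the list, and its mean was under 1 CPM in both groups.

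Of 20 tested genes of the beta-catenin relay, 15 were higher and the median log2 fold change was 0.080, from Gsk3b (-0.12) to Tcf7 (0.65). EdgeR's test called 0 of them, 5 of 20 were higher at an unadjusted p under 0.05 (7.89% of all genes), and DESeq2 called Ctnnb1 and Tcf7 higher (2.78% of all genes). Of 11 tested feedback target genes, 8 were higher with a median of 0.35, from Apcdd1 (-0.28) to Notum (1.0). Again edgeR's test called 0, while 5 of 11 were higher at an unadjusted p under 0.05 and DESeq2 called 3 higher (Dkk1, Notum and Tcf7), against the same 7.89% and 2.78% of all genes. Dkk1 is also in the ligand list and Tcf7 also in the relay list, so only Notum had not been counted above. Axin2, Lef1, Lgr5 and Rnf43 likewise stand in another list. Axin2, a widely used readout of beta-catenin activity, was at 7.79 ± 0.912 CPM in controls (SD, n = 4) and 9.45 ± 1.81 CPM in BMAd-DTA mice (SD, n = 7), a log2 fold change of 0.28 (adjusted p = 0.392 in edgeR's test, 0.369 in DESeq2). Mesd, the chaperone that LRP5 and LRP6 need to leave the endoplasmic reticulum, did not pass either (log2 fold change 0.15, adjusted p = 0.394 by edgeR).

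**Figure D4:**
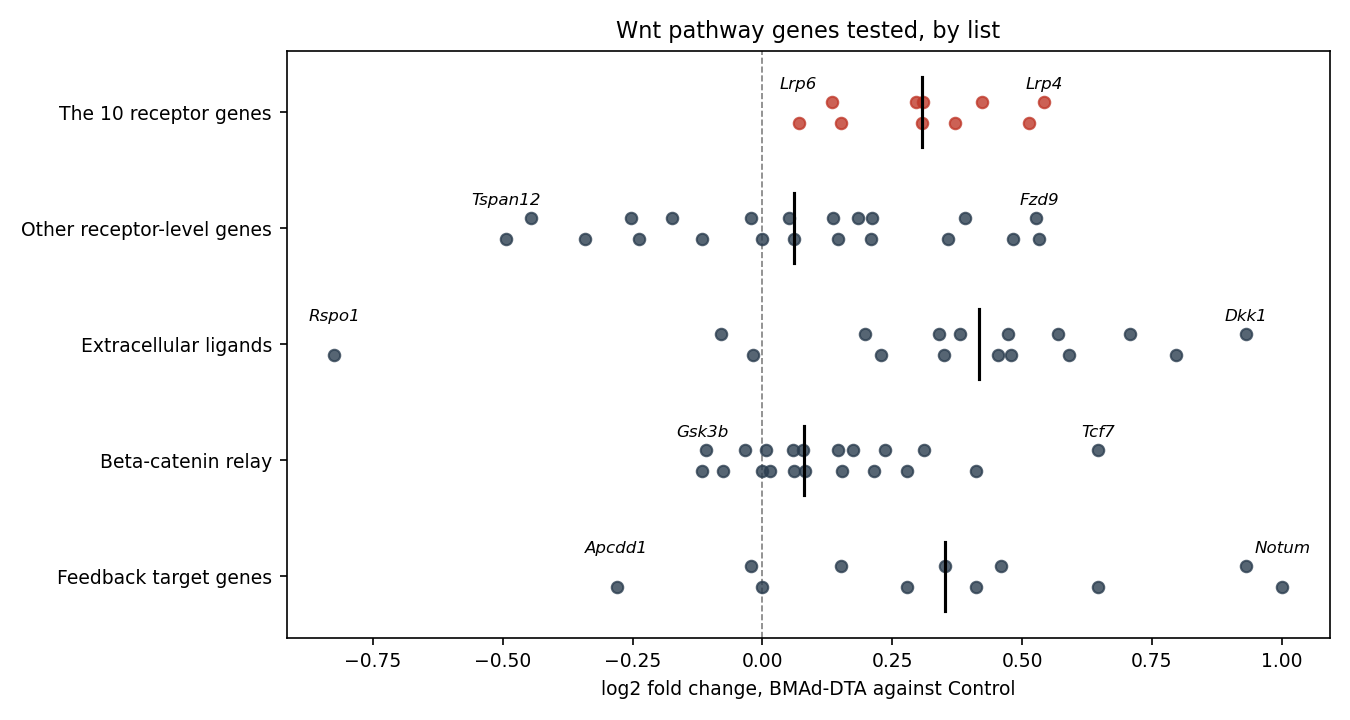
Log2 fold change of BMAd-DTA against Control (horizontal axis) for each tested gene of 5 lists, with 1 point per gene, a black bar at the median of each list and the names of the genes at its ends. The 10 receptor genes all lie above 0, as do 13 of 16 ligand genes, while the other receptor-level genes and the beta-catenin relay centre near 0.

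The receptor genes also varied from mouse to mouse, and this was set against scores of 12 marker lists (mean log2 CPM of a list in each of the 11 libraries), in 120 relations adjusted together. In 7 of them the adjusted p of Pearson's r was under 0.05, and in 1 that of Spearman's rho was as well. The latter was Ryk with the macrophage and osteoclast markers (r = 0.929, permutation p = 0.0001, adjusted p = 0.0096, rho = 0.973, permutation p = 3e-05, adjusted p = 0.0036). Without the 2 libraries farthest from the median score r was 0.927, and among the 7 BMAd-DTA mice alone it was 0.922. Ryk also rose with the osteoblast and osteocyte markers (r = 0.751, permutation p = 0.00775, adjusted p = 0.0692), with r = 0.703 among the BMAd-DTA mice. Nor was Ryk alone in rising with the macrophage and osteoclast markers, where r was 0.762 for Kremen1 and 0.742 for Lrp4 (adjusted permutation p = 0.0573 and 0.0692). These markers summed to 2550 to 4016 CPM in controls and 2892 to 5703 CPM in BMAd-DTA libraries. Of the 12, 8 had a positive log2 fold change, up to 1.27 for Ctsk. The other 4 (Adgre1, C1qa, C1qb and Mrc1) had a negative one, down to -0.30 for Adgre1. The score thus joins genes with estimates in both directions. Mmp9, also a neutrophil marker, had the highest mean of the 12, 1301 CPM in controls and 1782 CPM in BMAd-DTA mice.

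Lrp4 followed the osteoblast and osteocyte markers (r = 0.904, permutation p = 0.00019, adjusted p = 0.0096, rho = 0.755, permutation p = 0.00946, adjusted p = 0.142), with r = 0.876 without the 2 farthest libraries and r = 0.956 among the BMAd-DTA mice. Lgr4 did so over all libraries (r = 0.895, permutation p = 0.00024, adjusted p = 0.0096, rho = 0.845, permutation p = 0.00177, adjusted p = 0.0804), with r = 0.782 without those libraries but r = 0.454 among the BMAd-DTA mice. For Lrp5 the same relation was r = 0.836 (permutation p = 0.00116, adjusted p = 0.0338, rho = 0.827, permutation p = 0.00276, adjusted p = 0.0804), with r = 0.687 without those libraries and r = 0.266 among the BMAd-DTA mice. For Lgr6 it was r = 0.845 (permutation p = 0.00141, adjusted p = 0.0338, rho = 0.718, permutation p = 0.0165, adjusted p = 0.18), with r = 0.921 without those libraries and r = 0.887 among the BMAd-DTA mice. The other two relations were of Lrp5, with the chondrocyte markers (r = 0.777, permutation p = 0.00245, adjusted p = 0.049, rho = 0.745, permutation p = 0.0116, adjusted p = 0.152, r = 0.54 without the 2 farthest libraries, r = 0.256 among the BMAd-DTA mice) and with the macrophage and osteoclast markers (r = 0.814, permutation p = 0.0029, adjusted p = 0.0497, rho = 0.736, permutation p = 0.0126, adjusted p = 0.152, r = 0.621 without them, r = 0.694 among the BMAd-DTA mice). The 4 controls were too few for a correlation of their own. The permutations shuffled all 11 libraries without regard to group, so these p-values also take in the difference between groups. For deviations from the group means, r with the osteoblast and osteocyte markers was 0.851 for Lrp4, 0.667 for Lgr4, 0.635 for Lgr6 and 0.481 for Lrp5. For Lrp5 with the chondrocyte markers the r of these deviations was 0.443. Osteoblast markers and genotype moved together, and their part in the differences between groups was not tested.

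**Figure D5:**
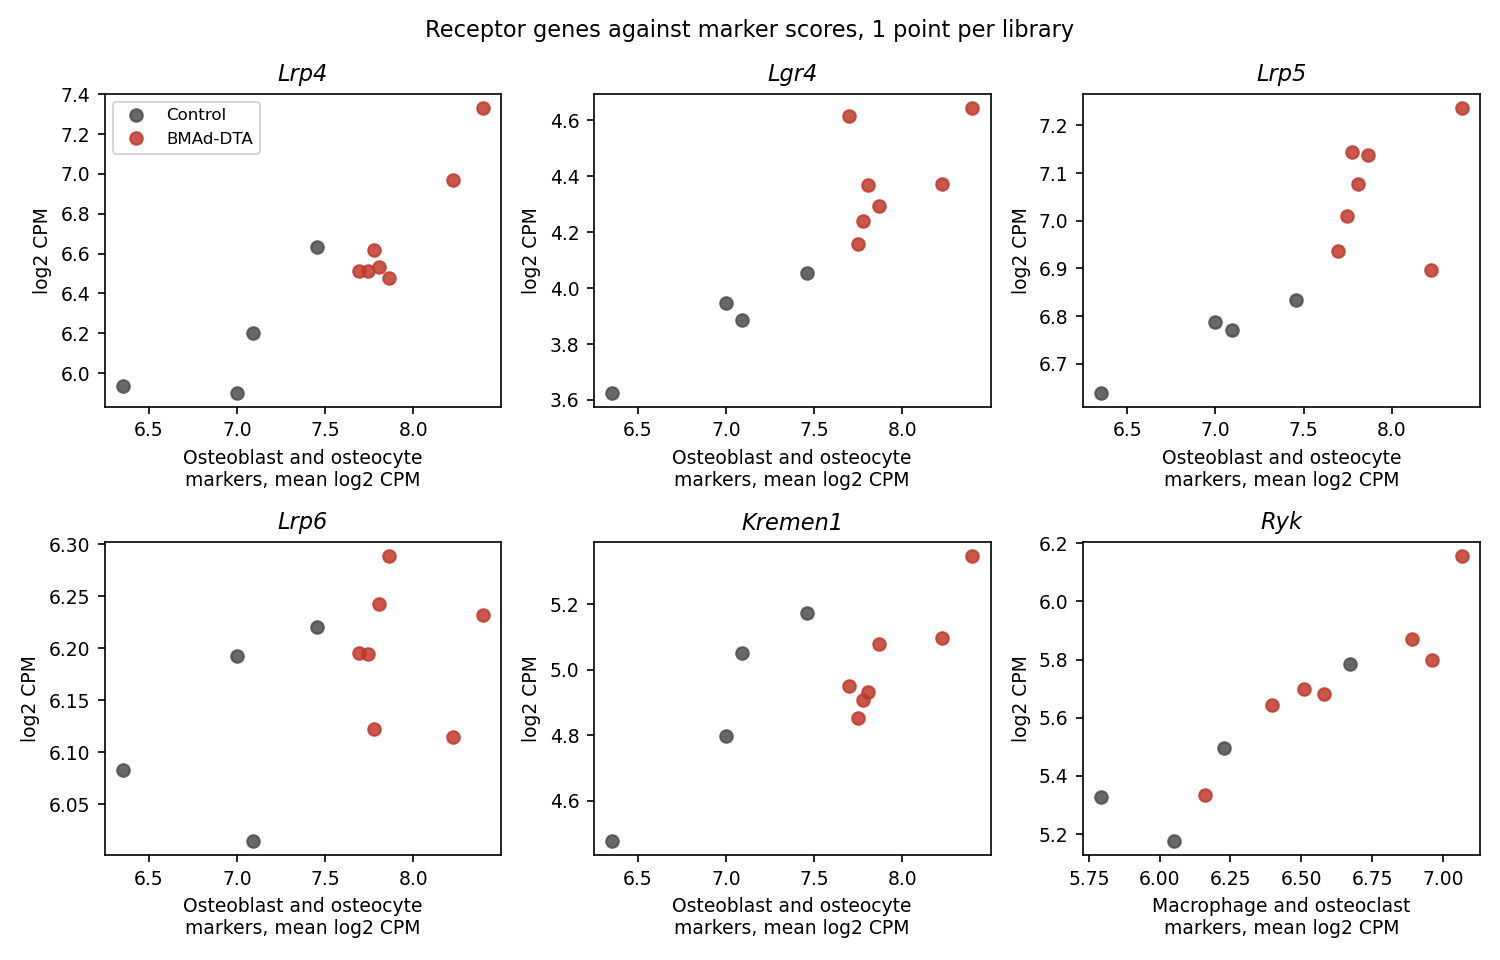
Log2 CPM of 6 genes (vertical axes) against the mean log2 CPM of a marker list (horizontal axes, osteoblast and osteocyte markers for 5 genes, macrophage and osteoclast markers for Ryk), with 1 point per library coloured by group. The Ryk points follow 1 line through both groups (r = 0.929 over all libraries). Lrp4 and Kremen1 climb within the BMAd-DTA mice (r = 0.956 and 0.907 there, 0.904 and 0.775 over all libraries). The Lrp6 points are scattered (r = 0.483 over all libraries, -0.0684 among the BMAd-DTA mice).

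The genes most alike in pattern were taken as the 3 with the highest Pearson's r over the 11 libraries among the 12972 or 12973 candidates that averaged 50 counts or more, and are given as a description. For Ryk they included Acp5 (r = 0.957) and Enah (0.957), and for deviations from the group means r was 0.944 and 0.977. Acp5 encodes the tartrate-resistant acid phosphatase of osteoclasts. It is itself in the macrophage and osteoclast score set against Ryk above, so it is not a separate observation. The most alike genes of Lrp4 were Aptx (0.973), Ptgis (0.96) and Adgrd1 (0.959). Those of Lrp5 were Nt5dc2 (0.975), Timp2 (0.964) and Efnb1 (0.955), and those of Lgr4 were Gne (0.949), Nectin3 (0.949) and Tmtc2 (0.943). Lgr6 had Dkk1 as its second (r = 0.933, and 0.853 for deviations from the group means), after Aopep (0.952). A high r was found for each of the 10, and even for Ror1, the least abundant, the highest was 0.891.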

How the data were processed

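Total RNA from distal tibiae was sequenced as stranded paired-end libraries. Per the paper's methods, the authors checked reads with FastQC 0.11.9, aligned them to mm10 with STAR and tested genotype with DESeq2. The annotation release is not given in the sources used here. The authors deposited raw counts of read pairs per gene, without normalization, as a merged table and per library, and the merged table was used. Identifiers were joined without version to GENCODE M21 (GRCm38, 99.89% matched) for positions and exon lengths.

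The test ran in R 4.3.3 with edgeR 4.0.16 (filterByExpr, TMM, glmQLFit, glmQLFTest, two-sided, Benjamini-Hochberg adjustment over 16496 genes, genotype the only term). A standard error is log2 fold change over root F, and 95% intervals use 13.05 degrees of freedom. Log2 CPM used a prior count of 2. Correlations were tested with 100000 permutations of all 11 libraries, without regard to group and two-sided, so 1e-05 is the smallest p possible. DESeq2 1.42.0 and limma 3.58.1 (voom), other scalings and filters, the per-library counts, a muscle covariate and each mouse left out in turn were alternatives. The 10 members and all lists were chosen with earlier results of these data known. Named besides the members are direct partners, the ends of each list and the most alike genes, plus Adgra2 and Fzd5, which were chosen after their values were seen, and 1 most alike gene is not reported here. Each library has its own identifier in the labels and was taken as 1 mouse, so p-values measure the spread between these samples.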

Additional observations from a re-analysis of the deposited data

How the results depend on the processing

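The log2 fold change of each of the 10 genes was above 0 under every alternative that gave a value. A filter at a mean of 50 counts removed Ror1 and Ror2. Calls depended most on the tool. DESeq2 called 845 genes, where edgeR's test called 13, and with it 3 of the 10 receptor genes, where edgeR's test called 0. These were Lrp4 (log2 fold change 0.54), Lrp5 (0.31) and Lgr4 (0.51). Among the 62 pathway genes tested, Znrf3 aside, DESeq2 also called 9, where edgeR's test called 0. Of these, Tspan12 was lower and the rest higher. Over all genes, DESeq2 called 2.78% higher and 2.64% lower. Limma-voom and RLE scaling each gave 20 genes, the muscle score as a covariate 3 and the removal of both muscle-rich libraries 1, and each of these called 0 of the 10. The cause was not tested. With 1 mouse left out at a time, edgeR's test called 0 to 292 genes, 0 or 1 of the 10 receptor genes and 0 to 2 of the other pathway genes, all 3 highest without Control 3, and the log2 fold change of Lgr4 ran from 0.43 to 0.58. DESeq2, refitted in the same way after its first calls were known, called 0 to 4 of the 10, with 0 without Control 1 and 4 without Control 3. Its calls over all genes moved likewise, with 213 without Control 1 and 1394 without Control 3. Ror1 and Ror2 rest on 16 to 48 counts per library. No paired analysis was possible because the labels give no number that groups share.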

Other observations

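The remaining paralog pair is given as values. The ratio of Ror2 to Ror1 per length was 1.94 ± 1.06 in controls (SD, n = 4) and 1.71 ± 0.689 in BMAd-DTA mice (SD, n = 7), and in both groups it varied by more than the groups differed. Lrp4 exceeded Lrp6 per length by 1.36 ± 0.304 times in controls (SD, n = 4) and by 1.9 ± 0.488 times in BMAd-DTA mice (SD, n = 7), highest in BMAd-DTA 3 at 2.79 and BMAd-DTA 2 at 2.35. Counts on the opposite strand were few for every gene, from 0.0655% of stranded counts for Lgr6 to 1.57% for Ror1, which has an antisense gene, Gm12706, in its locus.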
